A study of Bos taurus with 30 samples.

Results

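The genes described here encode 6 enzymes. GFPT1, GFPT2, GNPNAT1, PGM3 and UAP1 make UDP-N-acetylglucosamine (UDP-GlcNAc), and OGT is among the enzymes that use it inside the cell. The 6 genes were chosen by name, each matched 1 row of the count tables, and they are 6 of 27607 genes. Their identifiers are ENSBTAG00000017626 (GFPT1), ENSBTAG00000002215 (GFPT2), ENSBTAG00000005344 (GNPNAT1), ENSBTAG00000000679 (PGM3), ENSBTAG00000010206 (UAP1) and ENSBTAG00000000902 (OGT). RNA was sequenced from primary bovine endometrial epithelial and stromal cells kept for 72 hours under flow in a microfluidic device, in which each cell type had its own chamber. In the glucose experiment both cell types were exposed to 5 mM or 50 mM glucose (12 libraries). The insulin experiment, run at 5 mM glucose, had vehicle and insulin doses of 1 and 10 ng/mL (18 libraries). Each of the 10 groups held 3 replicates, numbered 1 to 3, so that 15 libraries were epithelial and 15 stromal. All cells came from the uteri of cows that were not pregnant, taken early in the luteal phase, and the sources used here do not tie a replicate number to an animal, so that p-values measure the spread between these samples.

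The hexosamine pathway takes a side stream of glycolysis and turns it into UDP-GlcNAc, the sugar donor for N-glycans, hyaluronan and O-GlcNAc. GFPT1 and GFPT2 carry out the entry step, the transfer of an amino group from glutamine to fructose 6-phosphate. GNPNAT1 then acetylates glucosamine 6-phosphate, PGM3 moves the phosphate group, and UAP1 joins the sugar to UDP. OGT uses the product to place single GlcNAc residues on nuclear and cytosolic proteins, and OGA removes them. The pathway is often described as a sensor of nutrient supply, because it draws on glucose, glutamine, acetyl-CoA and UTP.

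Libraries held 13493503 to 16647701 counted reads in the glucose experiment and 8826470 to 13214728 in the insulin experiment. Levels are given in CPM, the read count per 1000000 counted reads of the library, and a count of 0 would allow up to 0.34 CPM in the smallest library (3 reads, for counting error only). Every library held at least 6 reads on each of the 6 genes. The labels were checked with 12 epithelial and 12 stromal marker genes, each expressed as a percent of its mean in the cell type's own control group (5 mM glucose or vehicle). All 12 markers of a library's own cell type were detected in all 30 libraries. At 50 mM glucose, replicate 3 of the stromal cells stood apart, with a median of 71.2% for the epithelial markers and 47.2% for the stromal markers. In the other stromal libraries the epithelial markers had a median of at most 12.7% in the glucose and 3.66% in the insulin experiment, and EPCAM and ESRP1 were at 0 in replicates 2 and 3 at 5 mM. The stromal markers had a median of 2.53 to 11.1% in epithelial libraries of the glucose experiment and 0.94 to 10.51% in those of the insulin experiment. Summed levels of other cell types' markers were at most 18.8 CPM for immune cells and 76.7 CPM for endothelium, whereas smooth muscle and pericyte markers reached 1100 to 7259 CPM in stromal libraries. The immune markers PTPRC and CD3E and the endothelial marker KDR had no row. The immune sum thus holds only CD68, CD14, CD163 and AIF1. At 5 mM glucose, replicate 2 of the epithelial cells also stood apart, with the highest sum of epithelial markers (14221 CPM) and a GNPNAT1 level far below the other libraries, and results that rest on it are given with and without it. In bulk RNA, fewer cells of a type and less RNA per cell cannot be told apart.

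GFPT2 was the only member whose levels separated the cell types in every comparison of epithelial with stromal cells. In epithelial cells it had 16.9, 0.741 and 3.49 CPM in replicates 1, 2 and 3 at 5 mM glucose, and 13.0, 14.5 and 4.99 CPM at 50 mM. In stromal cells it had 167, 83.4 and 91.2 CPM at 5 mM, and 108, 101 and 57.0 CPM at 50 mM. Every stromal library lay above every epithelial library at both glucose concentrations. In the insulin experiment, epithelial GFPT2 was 3.14, 0.62 and 7.32 CPM with vehicle, 3.78, 0.878 and 5.97 CPM at 1 ng/mL, and 1.89, 0.906 and 5.88 CPM at 10 ng/mL. Stromal GFPT2 was 97.1, 53.6 and 49.5 CPM with vehicle, 82.3, 51.7 and 54.3 CPM at 1 ng/mL, and 86.7, 50.2 and 52.9 CPM at 10 ng/mL. Again the cell types did not overlap, and the level was lower in epithelial cells in 6 of 6 pairs of the glucose experiment and 9 of 9 of the insulin experiment.

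**Figure D1:**
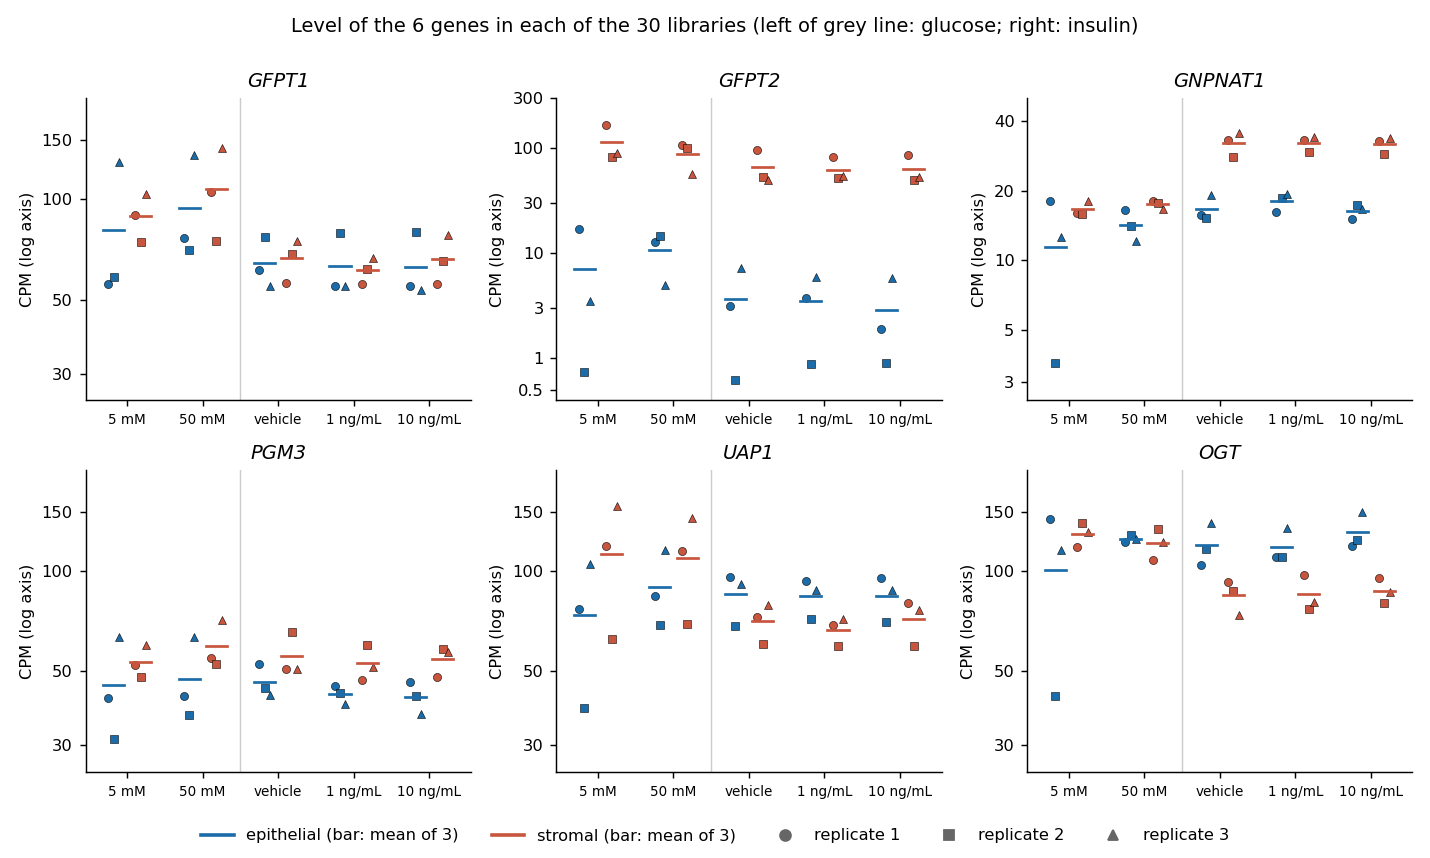
Level of each gene in CPM (log axis) in every library, by treatment, with epithelial cells in blue and stromal cells in red. Symbols mark the replicate number and horizontal bars the mean of 3 libraries. Epithelial libraries lie at 0.62 to 16.9 CPM for GFPT2 and stromal libraries at 49.5 to 167 CPM, and GNPNAT1 separates the cell types in the insulin experiment, where stromal libraries lie at 27.8 to 35.4 CPM.

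The log2 fold change of GFPT2 between epithelial and stromal cells was -5.02 (standard error 0.722) at 5 mM and -3.26 (standard error 0.203) at 50 mM glucose, and it was called at both (adjusted p = 0.00824 and 0.0016 by the edgeR quasi-likelihood test, Benjamini-Hochberg adjusted). In linear terms stromal cells had 32.5 and 9.59 times as much. At 5 mM the log2 CPM difference of pair 2 was -6.81, against -3.31 and -4.71 in pairs 1 and 3. With 1 replicate left out, the fitted value ran from -5.85 to -4.22 at 5 mM and from -3.45 to -3.11 at 50 mM. The 50 mM value includes the stromal library of replicate 3, with its 71.2% of epithelial markers. Calls required an adjusted p under 0.05 together with a log2 fold change larger than 0.1 either way. In the insulin experiment GFPT2 was called in all 3 comparisons, with -4.40 (adjusted p = 0.00502, standard error 0.634) for vehicle, -4.37 (0.000681 and 0.429) for 1 ng/mL and -4.66 (0.00317 and 0.538) for 10 ng/mL in the same test. At 50 mM the call was lost without replicate 1 (-3.23, adjusted p = 0.05004, just above the threshold), a setting in which no gene of the table was called. All other settings kept the calls of GFPT2.

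Within the epithelial libraries GFPT2 varied 27.3-fold, from 0.62 to 16.9 CPM, against 3.37-fold within the stromal libraries. The stromal marker genes varied with it. Set against the mean of the stromal control libraries, GFPT2 reached 0.929% in replicate 2 with vehicle, where the stromal markers had a median of 0.94%. It reached 4.70% in replicate 1 with vehicle, beside 3.67% for the markers, and 10.96% in replicate 3, beside 10.1%. At 1 ng/mL of insulin the same pairs of values were 5.66% and 3.40%, 1.32% and 1.21%, and 8.94% and 10.51% in replicates 1, 2 and 3. In the glucose experiment GFPT2 reached 14.8% beside 11.1% in replicate 1 at 5 mM, 0.651% beside 2.53% in replicate 2 and 3.07% beside 4.52% in replicate 3. GFPT2 thus lay above the marker percent in some epithelial libraries and below it in others, with a lower value than the markers in 3 of the 6 libraries of the glucose and 4 of the 9 of the insulin experiment. The stromal library of replicate 3 at 50 mM, which held the epithelial markers, had the lowest GFPT2 level of the glucose experiment's stromal libraries at 50.1% of the control mean. Whether the epithelial reads on GFPT2 came from stromal cells was not tested.

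**Figure D2:**
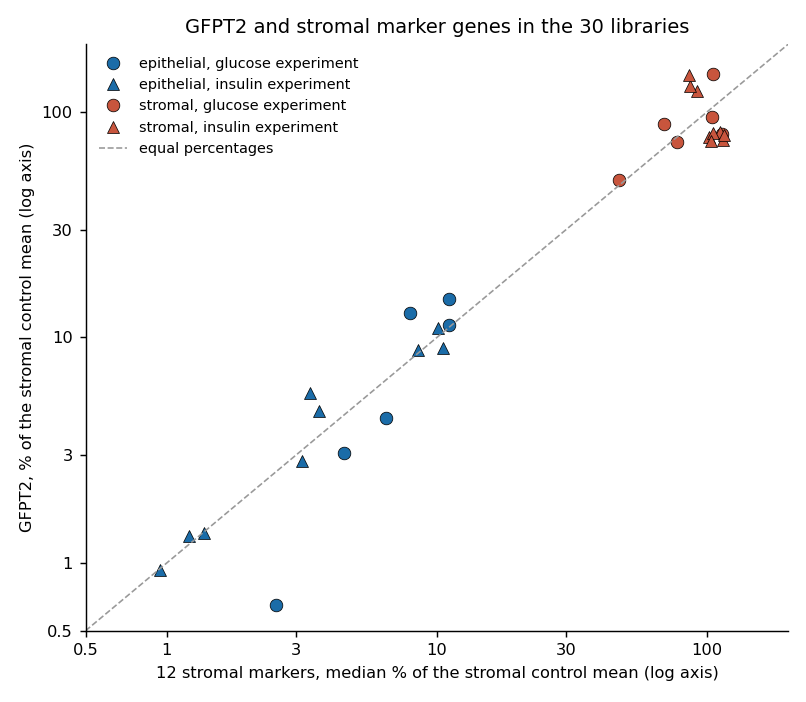
GFPT2 (y axis) against the median of 12 stromal marker genes (x axis), both as percent of their mean in the stromal control libraries, on log axes, for the 30 libraries. Blue marks are epithelial and red marks stromal libraries, circles the glucose and triangles the insulin experiment, and the dashed line marks equal percentages. Epithelial libraries lie on both sides of the line, among them 0.929% beside 0.94% and 14.8% beside 11.1%. At 50 mM glucose epithelial replicate 2 lies above it (12.8% beside 7.92%) and replicate 3 below it (4.38% beside 6.48%). Epithelial replicate 2 at 5 mM glucose lies below it at 0.651% beside 2.53%.

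GFPT1, the other enzyme of the entry step, showed no call in any comparison. It had 55.7, 58.3 and 129 CPM in epithelial cells at 5 mM glucose and 89.2, 74.4 and 103 CPM in stromal cells. At 50 mM it had 76.3, 70.3 and 136 CPM in epithelial cells and 105, 74.8 and 142 CPM in stromal cells. The cell types overlapped in both, and replicate 3 was the highest library in all 4 groups of the glucose experiment. With vehicle or insulin, epithelial libraries lay between 53.4 and 79.6 CPM and stromal libraries between 55.5 and 78.0 CPM. The log2 fold changes between epithelial and stromal cells were -0.45 (95% interval -1.28 to 0.37) at 5 mM and -0.36 (-0.82 to 0.11) at 50 mM. They were -0.13 (-0.62 to 0.37) for vehicle, -0.09 (-0.48 to 0.31) for 1 ng/mL and -0.20 (-0.73 to 0.34) for 10 ng/mL. The sign in the last 3 depended on replicate 3, without which the values were 0.14, 0.10 and 0.07.

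The share of both enzymes in the reads of the entry step followed from these levels. For every 100 reads on GFPT1, epithelial libraries held 1.27 to 30.3 reads on GFPT2 in the glucose experiment (median 10.3) and 0.805 to 13.3 in the insulin experiment (median 5.13). Stromal libraries held 40.1 to 187 (median 107) and 66.2 to 174 (median 81.6). The lowest stromal value, 40.1, belonged to replicate 3 at 50 mM, and the ranges of the cell types did not overlap. Transcript lengths were not used here, so the ratio compares libraries and not the amounts of both transcripts.

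GNPNAT1, the acetyltransferase, was called higher in stromal cells with vehicle and at both insulin doses, and at neither glucose concentration. With vehicle it had 15.8, 15.3 and 19.1 CPM in epithelial and 32.9, 27.8 and 35.4 CPM in stromal cells. At 1 ng/mL it had 16.2, 18.5 and 19.4 CPM against 33.1, 29.3 and 33.9 CPM, and at 10 ng/mL 15.1, 17.3 and 16.6 CPM against 32.6, 28.7 and 33.5 CPM. No insulin library overlapped between the cell types. The log2 fold changes of epithelial over stromal cells were -1.02, -0.94 and -1.06, with standard errors of 0.103, 0.125 and 0.126. The adjusted p-values were 0.00217, 0.00188 and 0.00339 by the edgeR quasi-likelihood test, Benjamini-Hochberg adjusted. GNPNAT1 was therefore called in all 3 insulin comparisons, and stromal cells had 2.02, 1.92 and 2.08 times as much.

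At 5 mM glucose GNPNAT1 had 18.1, 3.63 and 12.6 CPM in epithelial and 16.0, 15.8 and 18.0 CPM in stromal cells, and the log2 fold change of -1.01 (95% interval -2.24 to 0.22) became -0.42 without replicate 2. At 50 mM it had 16.6, 14.1 and 12.1 CPM against 18.0, 17.6 and 16.7 CPM, which did not overlap, with -0.45 (95% interval -0.87 to -0.03, adjusted p = 0.117 in the same test). The 6 stromal libraries of the glucose experiment lay at 15.8 to 18.0 CPM and the 9 of the insulin experiment at 27.8 to 35.4 CPM. Epithelial libraries had 3.63 to 18.1 and 15.1 to 19.4 CPM. The stromal ranges of the experiments did not overlap. Nor did those of stromal OGT, which was higher in the glucose experiment (108 to 139 CPM against 73.7 to 96.9 CPM). The share of all genes with such a gap was not computed. These differences were not tested, and the experiment cannot be told apart from the set of libraries.

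PGM3, the phosphomutase, had log2 fold changes of epithelial over stromal cells between -0.50 and -0.33, of which 1 of 5 passed the test. Epithelial libraries had 31.4 to 63.5 CPM in the glucose and 37.4 to 52.5 CPM in the insulin experiment, and stromal libraries 48.0 to 71.3 and 47.0 to 65.6 CPM. The epithelial level was lower in 5 of 6 pairs of the glucose experiment and in 8 of 9 of the insulin experiment. The log2 fold changes were -0.50 (95% interval -1.25 to 0.24) and -0.50 (-0.90 to -0.10) at 5 and 50 mM glucose, and -0.33 (-0.79 to 0.12), -0.41 (-0.73 to -0.10) and -0.48 (-0.95 to -0.02) for vehicle, 1 ng/mL and 10 ng/mL of insulin. PGM3 was called at 1 ng/mL, with 45.2, 42.9 and 39.8 CPM in epithelial and 47.0, 59.9 and 51.5 CPM in stromal cells (adjusted p = 0.0361, the edgeR quasi-likelihood test, Benjamini-Hochberg adjusted). This call was lost without replicate 2 or replicate 3 and in DESeq2 (adjusted p = 0.137, 0.145 and 0.111). At 10 ng/mL the adjusted p was 0.0745, and 0.0333 with no replicate block in the fit. Leaving out 1 replicate also brought calls, at 50 mM without replicate 3 (adjusted p = 0.0487), with vehicle without replicate 1 (0.0473) and at 10 ng/mL without replicate 1 (0.0211).

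UAP1, the pyrophosphorylase that makes UDP-GlcNAc, was not called, and the sign of its fold changes differed between the experiments, a difference that was not tested. In the glucose experiment it had 77.0, 38.8 and 104 CPM in epithelial and 118, 62.6 and 156 CPM in stromal cells at 5 mM. At 50 mM it had 84.1, 68.5 and 115 CPM against 115, 69.0 and 143 CPM. Epithelial cells were lower in 6 of 6 pairs, with log2 fold changes of -0.85 (95% interval -1.56 to -0.13, adjusted p = 0.1003 by the edgeR quasi-likelihood test, Benjamini-Hochberg adjusted) and -0.41 (-0.86 to 0.04). With vehicle or insulin, epithelial libraries had 68.1 to 95.6 CPM and stromal libraries 59.4 to 79.8 CPM, and epithelial cells were higher in 9 of 9 pairs. The log2 fold changes were 0.18 (-0.15 to 0.51), 0.22 (-0.03 to 0.47) and 0.12 (-0.15 to 0.39). Replicate 2 had the lowest UAP1 level in all 4 groups of the glucose and all 6 groups of the insulin experiment, and whether a replicate number marks one source is not stated in the sources used here.

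OGT, the only member that acts on proteins, was called higher in epithelial cells at both insulin doses and was not called in the other 3 comparisons. At 5 mM glucose it had 143, 42.0 and 116 CPM in epithelial and 117, 139 and 130.5 CPM in stromal cells, and at 50 mM 122, 128 and 124 CPM against 108, 133 and 122 CPM. The log2 fold changes were -0.74 (95% interval -1.83 to 0.35), which became -0.20 without replicate 2, and -0.10 (-0.46 to 0.26). At 50 mM the mean CPM was slightly higher in epithelial cells (124.6 against 120.8), as in 2 of 3 pairs. The sign of the fitted change thus depended on the scaling there. With vehicle OGT had 104, 116 and 138 CPM in epithelial and 92.7, 87.0 and 73.7 CPM in stromal cells. At 1 ng/mL it had 109, 110.1 and 134 CPM against 96.9, 76.7 and 80.8 CPM, and at 10 ng/mL 118, 123 and 149 CPM against 95.05, 80.2 and 86.0 CPM. The cell types did not overlap at any insulin dose, and epithelial cells were higher in 9 of 9 pairs.

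The log2 fold change of OGT was 0.42 (standard error 0.134) for vehicle, 0.37 (standard error 0.122) for 1 ng/mL and 0.47 (standard error 0.105) for 10 ng/mL. The adjusted p-values were 0.052, 0.0464 and 0.0188 by the edgeR quasi-likelihood test, Benjamini-Hochberg adjusted, so that OGT was called at both insulin doses and just missed the threshold with vehicle. With no replicate block the vehicle comparison was called as well (adjusted p = 0.0241), as it was with RLE size factors (0.047), and with no filter on low counts 1 ng/mL was not (0.055). Without replicate 2 or replicate 3 neither dose was called, with adjusted p-values of 0.143 and 0.195 at 1 ng/mL and 0.088 and 0.104 at 10 ng/mL. DESeq2 called 10 ng/mL (adjusted p = 0.00406) and not 1 ng/mL (adjusted p = 0.0772).

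**Figure D3:**
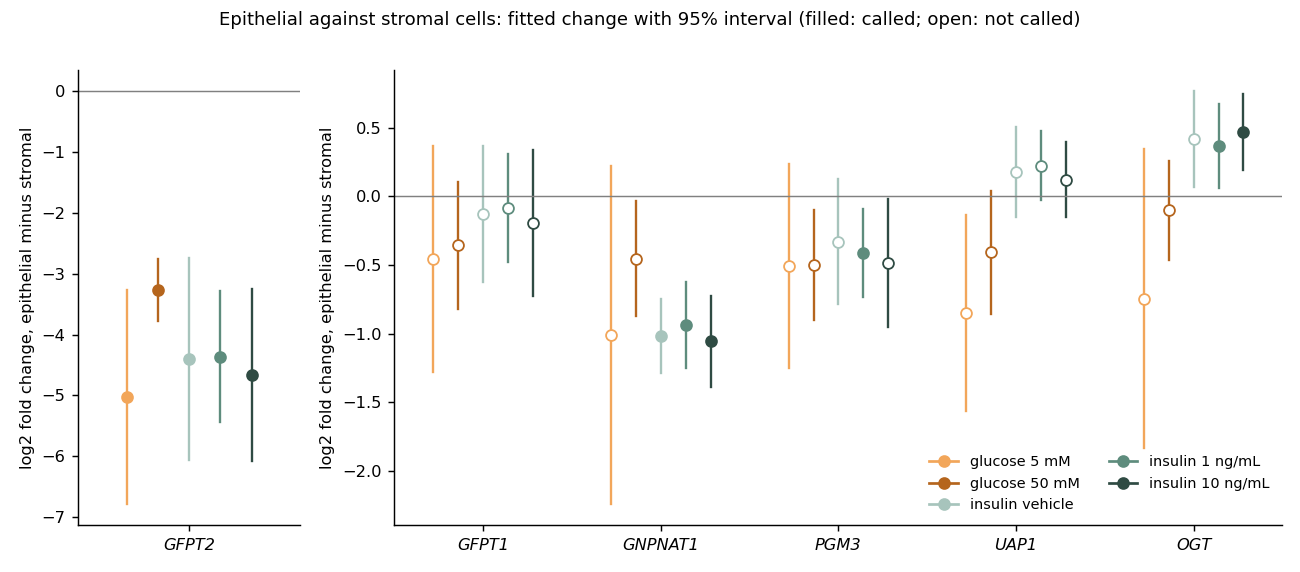
Fitted log2 fold change of epithelial over stromal cells (y axis) with its 95% interval for each gene and treatment. Filled points were called and open points were not. GFPT2, on its own axis, lies between -5.02 and -3.26, and the other genes lie between -1.06 and 0.47.

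Of the 6 genes, GFPT2 alone was called at each glucose concentration, where 21.1% of all genes tested were called at 5 mM and 17.3% at 50 mM. For vehicle, 1 ng/mL and 10 ng/mL of insulin, 2, 4 and 3 of the 6 genes were called, where 55.2, 58.9 and 54.4% of all genes were called. The ranges of the cell types did not overlap for 1, 2, 3, 5 and 4 of the 6 genes in the 5 comparisons, beside 44.5, 35.2, 65.5, 67.6 and 65.9% of all genes. The median log2 fold change over the 6 genes was -0.80, -0.43, -0.23, -0.25 and -0.34, and that over all genes lay between -0.01 and 0.03. The counts of called members were thus near the shares of all genes, and say little about the pathway as a group. Ordered by group mean, the 10 groups of GFPT2 had 1 gap, between stromal cells at 1 ng/mL of insulin (62.8 CPM) and epithelial cells at 50 mM glucose (10.8 CPM). Those of GNPNAT1 also had 1 gap, between the stromal insulin groups and all others, and for the other 4 genes each group overlapped with the next.

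The glucose comparison asks whether the RNA levels of the pathway's enzymes differed at 10-fold more of its starting sugar. Enzyme protein, activity and UDP-GlcNAc are not measured by these counts. None of the 6 genes was called in either cell type (the edgeR quasi-likelihood test, Benjamini-Hochberg adjusted), where edgeR called 0% of all genes in both cell types. None had an unadjusted p under 0.05 in that test, which 212 of 13713 genes had in epithelial and 664 of 13644 in stromal cells. DESeq2 also called no member, while it called 178 genes of the table in stromal and 0 in epithelial cells. The libraries of 5 and 50 mM overlapped for all 6 genes in both cell types, while they did not for 5.54% of all genes in epithelial and 6.16% in stromal cells. In stromal cells the log2 fold changes of 50 over 5 mM were 0.17 for GFPT1, -0.41 for GFPT2, 0.01 for GNPNAT1, 0.08 for PGM3, -0.08 for UAP1 and -0.16 for OGT. The widest 95% interval was that of GFPT2 (-1.04 to 0.21), and the others lay within -0.43 and 0.52. GFPT1 and PGM3 were higher at 50 mM in 3 of 3 stromal pairs and OGT was lower in 3 of 3. The stromal library of replicate 3 at 50 mM had 142 CPM of GFPT1 and 57.0 CPM of GFPT2, against 103 and 91.2 CPM in replicate 3 at 5 mM, beside its 71.2% of epithelial markers. Without replicate 3 the stromal change of GFPT2 was -0.21 and that of GFPT1 was 0.09.

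In epithelial cells all 6 log2 fold changes were above 0, with 0.27 for GFPT1, 1.19 for GFPT2, 0.55 for GNPNAT1, 0.09 for PGM3, 0.37 for UAP1 and 0.48 for OGT, and the smallest adjusted p was 0.804. For GFPT2, GNPNAT1 and OGT these values rested on replicate 2, whose library at 5 mM had 0.741 CPM of GFPT2, 3.63 CPM of GNPNAT1, 42.0 CPM of OGT and 38.8 CPM of UAP1, the lowest epithelial values of the glucose experiment for all 4 genes. Its partner at 50 mM had 14.5, 14.1, 128 and 68.5 CPM. The log2 differences within this pair were 4.29, 1.96, 1.61 and 0.82. In pairs 1 and 3 the same genes gave -0.38 and 0.51, -0.13 and -0.06, -0.23 and 0.10, and 0.13 and 0.14. Without replicate 2 the fitted changes were -0.04 for GFPT2, -0.06 for GNPNAT1, -0.03 for OGT, 0.17 for UAP1, 0.29 for GFPT1 and 0.05 for PGM3. The 95% intervals with all 3 pairs were -1.03 to 3.41 for GFPT2, -0.61 to 1.71 for GNPNAT1 and -0.47 to 1.44 for OGT, which reached above a log2 change of 1. Those of GFPT1 (-0.27 to 0.81), PGM3 (-0.43 to 0.62) and UAP1 (-0.22 to 0.95) did not. The test of the difference between the epithelial and the stromal glucose effect gave 1.57 for GFPT2 (95% interval -0.77 to 3.91, adjusted p = 0.778 in the edgeR quasi-likelihood test). No member was called for this difference, where 0% of all genes were called. The intervals of this difference were wide, with -0.73 to 1.79 for GNPNAT1, -0.41 to 1.69 for OGT and -0.21 to 1.08 for UAP1, so that the lack of a call does not show that the effects were alike.

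**Figure D4:**
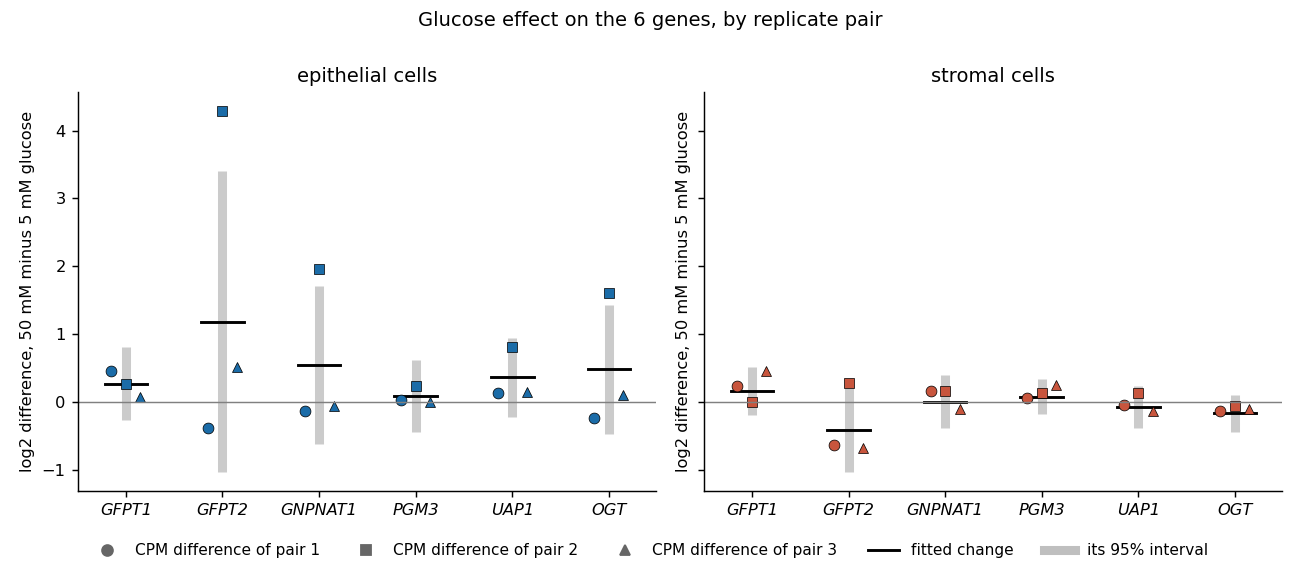
Log2 difference of 50 mM over 5 mM glucose (y axis) for each gene in epithelial (left) and stromal cells (right). Symbols are the CPM differences of the 3 replicate pairs, black bars the fitted changes and grey bands their 95% intervals. The epithelial pair of replicate 2 stands at 4.29 for GFPT2, 1.96 for GNPNAT1 and 1.61 for OGT, while pairs 1 and 3 lie between -0.38 and 0.51 for these genes.

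No member passed the test for insulin. Over 6 comparisons, 3 in each cell type, the 36 log2 fold changes lay between -0.36 and 0.14, and without GFPT2 between -0.16 and 0.14. None was called by the edgeR quasi-likelihood test, Benjamini-Hochberg adjusted (smallest adjusted p = 0.584) or by DESeq2, and 3 of the 36 had an unadjusted p under 0.05. In epithelial cells 383 of 12966, 894 of 12853 and 572 of 12873 genes had such a p in the edgeR test. In stromal cells 656 of 12711, 356 of 12779 and 500 of 12772 did, for 1 ng/mL over vehicle, 10 ng/mL over vehicle and 10 over 1 ng/mL. The 3 values thus say little about the members. Of all genes, 0.124% were called for 10 ng/mL over vehicle in epithelial cells, 0.0157% for 1 ng/mL over vehicle and 0.0313% for 10 over 1 ng/mL in stromal cells, and 0% in the other 3 comparisons. The groups overlapped for all 6 genes in every comparison. They did not overlap for 2.23, 2.86 and 3% of all genes in epithelial cells and 4.35, 2.86 and 3.5% in stromal cells, for 1 ng/mL over vehicle, 10 ng/mL over vehicle and 10 over 1 ng/mL. The comparisons within a cell type share libraries, so that they are not independent.

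Of the 3 small p-values, 2 belonged to OGT in epithelial cells. Its level at 10 ng/mL was above that with vehicle and above that at 1 ng/mL in 3 of 3 pairs each. The log2 fold changes were 0.12 (adjusted p = 0.584) and 0.14 (adjusted p = 0.983) in the edgeR quasi-likelihood test. Both use the same 10 ng/mL libraries, which had 118, 123 and 149 CPM and overlapped with the libraries of vehicle at 104 to 138 CPM and of 1 ng/mL at 109 to 134 CPM. The remaining one was epithelial PGM3, which had 46.3, 42.0 and 37.4 CPM at 10 ng/mL against 52.5, 44.6 and 42.4 CPM with vehicle and was lower in 3 of 3 pairs. Its log2 fold change was -0.16 (adjusted p = 0.647 in the same edgeR test). In stromal cells no member reached an unadjusted p under 0.05, and the log2 fold changes lay between -0.09 and 0.09. The intervals of epithelial GFPT2, such as -0.82 to 0.11 for 10 ng/mL over vehicle, were wider than those of the other members, beside its counts of 6 to 78 reads. For the difference of the insulin effect between cell types no member was called either, with values from -0.31 to 0.06 at 10 ng/mL and from -0.07 to 0.08 at 1 ng/mL. The same tests called 0% of all genes at 10 ng/mL and 0.658% at 1 ng/mL.

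Other genes around the pathway were taken from 8 lists of 38 genes, of which 37 had a row. Genes called in the same direction in all 5 comparisons of epithelial with stromal cells were MGAT5 and HAS3. MGAT5, which adds a branch to N-glycans from UDP-GlcNAc, had 33.4 ± 2.62 CPM (SD, n = 3) in epithelial and 13.2 ± 0.361 CPM (SD, n = 3) in stromal cells with vehicle. Its log2 fold changes were 1.70 and 0.89 at 5 and 50 mM glucose and 1.25, 1.49 and 1.42 in the insulin comparisons, with adjusted p-values from 0.000382 to 0.0283 in the edgeR quasi-likelihood test. At 50 mM its call was lost without replicate 1 or 2 and with no replicate block (adjusted p = 0.222, 0.0568 and 0.205), and at 5 mM without replicate 3 (adjusted p = 0.269). HAS3, a hyaluronan synthase that also consumes UDP-GlcNAc, had 122 ± 44.0 CPM (SD, n = 3) in epithelial and 7.06 ± 3.63 CPM (SD, n = 3) in stromal cells with vehicle. Its log2 fold changes were 3.03 and 1.82 in the glucose and 4.04, 5.07 and 4.56 in the insulin comparisons, and the 50 mM call was lost without replicate 1 (adjusted p = 0.221).

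HAS3 was also the only listed gene called for a difference of a treatment effect between cell types. The effect of 1 ng/mL of insulin was 0.08 in epithelial and -0.97 in stromal cells, a difference of 1.11 (standard error 0.233, adjusted p = 0.04 in the edgeR quasi-likelihood test, Benjamini-Hochberg adjusted), where 0.658% of all genes were called. HAS3 was called for 1 ng/mL over vehicle in neither cell type. The difference at 10 ng/mL, against the same vehicle libraries, was 0.51 and was not called. Stromal HAS3 was 4.64, 11.2 and 5.31 CPM with vehicle and 3.52, 3.31 and 3.47 CPM at 1 ng/mL. The high vehicle library, replicate 2, had a median of 3.45% for the epithelial markers, against 0.0728% and 0.0468% in replicates 1 and 3. Without replicate 2 the difference was 0.60 (adjusted p = 0.607), without replicate 1 it was 1.31 (adjusted p = 0.0651), and with no replicate block the adjusted p was 1.00. Their part in the result was not tested.

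At 5 mM glucose 3 listed genes were called higher and 3 lower in epithelial cells, beside 10.5% and 10.6% of all genes. At 50 mM 2 were called higher and 3 lower, beside 6.39% and 10.9% of all genes. Those called beside MGAT5 and HAS3 are named here after their values were seen. At 5 mM they were HAS1, higher in epithelial cells, and HAS2, the glucose transporter SLC2A3 and the nucleotide sugar transporter SLC35B4, lower. At 50 mM they were SLC2A3, the renin-binding epimerase RENBP and UAP1L1, a relative of UAP1, all lower. These counts changed with the setting and with the replicate left out. At 5 mM the 3 higher genes became 7 without replicate 2 and 5 without replicate 1, 6 with no replicate block or no filter on low counts and 7 with DESeq2, while the lower ones numbered 2 to 4. At 50 mM no listed gene was called without replicate 1, whereas 6 were higher and 6 lower without replicate 3. With DESeq2, no filter and no replicate block 6, 4 and 1 were higher at 50 mM, and 2 to 3 were lower. HAS1 and HAS2 were too low for the test in the insulin experiment.

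With vehicle, 1 ng/mL and 10 ng/mL of insulin, 13, 13 and 14 of the 35 listed genes tested were called higher in epithelial cells, beside 27.8, 29.6 and 27.1% of all genes. In each comparison 7 were called lower, beside 27.3, 29.3 and 27.3%. The lower genes numbered 4 with vehicle without replicate 3, 4 at 1 ng/mL without replicate 2 or 3, and 3 at 10 ng/mL without replicate 2 or 3, where the higher genes fell from 14 to 10 and 9. In one direction in all 3 comparisons, 13 genes were called higher and 6 lower in epithelial cells, beside 24.3% and 24.2% of all genes tested in all 3. Without replicate 2 these were 10 and 3 genes, and without replicate 3 they were 9 and 3. Those named here were picked after their values were seen, except MGAT5 and HAS3. From the list of glucose and glutamine supply, the transporter SLC2A1, the hexokinases HK1 and HK2 and the isomerase GPI, which makes fructose 6-phosphate, were higher in epithelial cells, and glutamine synthetase (GLUL) was lower. SLC2A1 had log2 fold changes of 4.42, 5.08 and 4.73, and HK2 had 2.55, 2.77 and 2.47, while in the glucose experiment neither was called (1.99 and 1.09 for SLC2A1, 0.26 and -0.17 for HK2). In hexosamine salvage and breakdown, NAGK and GNPDA1 were higher and RENBP was lower in epithelial cells. Among the genes that draw on UDP-GlcNAc or on sugars made from it, NANS, the transporters SLC35A3 and SLC35D2, and the N-glycan enzyme MGAT3 were higher, while SLC35B4 and MGAT1 were lower. UAP1L1, the relative of UAP1, and the stress regulator XBP1 were lower as well.

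OGA, the enzyme that removes the sugar OGT places, was called in 1 comparison, at 10 ng/mL of insulin (0.39, standard error 0.103, adjusted p = 0.0309 in the edgeR quasi-likelihood test), higher in epithelial cells like OGT. For every 100 reads on OGA, libraries of the insulin experiment held 80.7 to 102 reads on OGT in epithelial and 67.8 to 97.8 in stromal cells. In the glucose experiment they held 29.0 to 75.0 and 45.7 to 133. The cell types overlapped in this ratio in both experiments, and the lowest value, 29.0, belonged to replicate 2 at 5 mM in epithelial cells. None of the 37 listed genes was called for glucose in either cell type by the edgeR quasi-likelihood test.

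**Figure D5:**
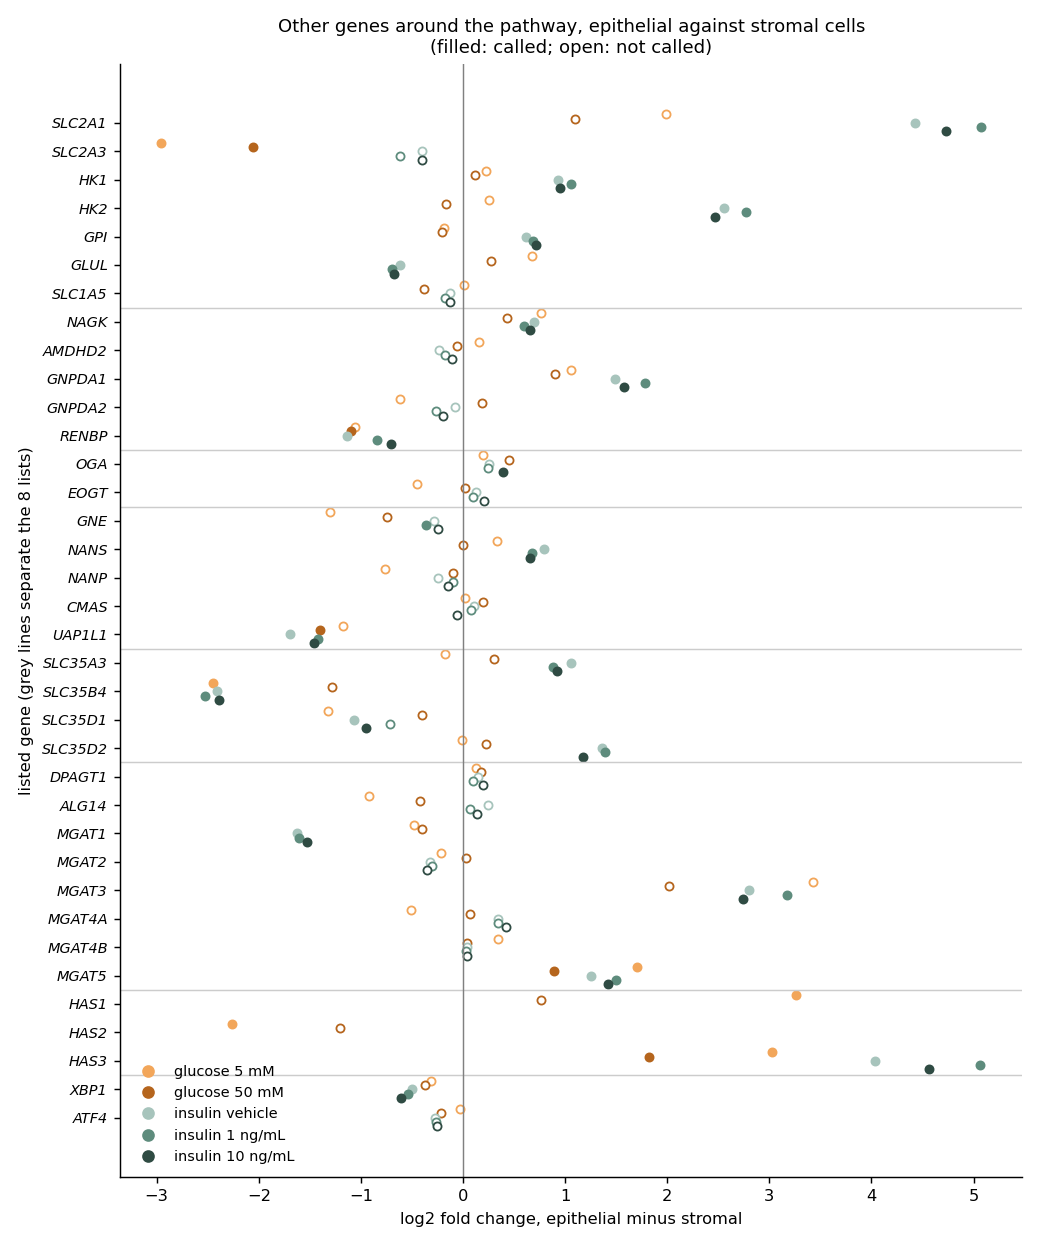
Log2 fold change of epithelial over stromal cells (x axis) for 36 of the listed genes around the pathway (y axis), coloured by treatment, with filled points for called and open points for not called. MGAT5 and HAS3 are filled in all 5 comparisons, and SLC2A1 reaches 5.08 at 1 ng/mL of insulin.

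The genes whose levels were most like those of a member were sought over the 30 libraries, after the mean of each cell type and experiment had been subtracted from log2(CPM + 0.5), among 12525 genes. The correlations are descriptions, since libraries of one replicate number may share a source, and 1 library can carry them. Stromal markers also varied over the epithelial libraries, from 0.94 to 11.1%, and 1 stromal library held 71.2% of epithelial markers. The part of this mixture in the correlations was not tested. The genes most like GFPT2 were CTSK (r = 0.953), SULF1 (r = 0.935) and CDK14 (r = 0.917). Without the epithelial library of replicate 2 at 5 mM r was 0.931, 0.917 and 0.878. CTSK is a collagen-degrading protease and SULF1 a heparan sulfate editing enzyme. For PGM3 they were FBXO28, PNPLA8 and TMF1 (r = 0.865 to 0.89), and for GFPT1 they were TET2 (r = 0.856), CCNI (r = 0.835) and 1 gene with no name in the tables. For UAP1 they were BTG1 (r = 0.933), KMT2E (r = 0.907) and 1 gene with no name. For GNPNAT1 they were ARPP19, UBE2E1 and TWF1 (r = 0.955 for each), which fell to 0.66 for ARPP19, 0.72 for UBE2E1 and 0.661 for TWF1 without that library. For OGT they were HBS1L, ROCK1 and USP9X (r = 0.946, 0.941 and 0.941), with 0.718, 0.685 and 0.737 without it.

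Among the 6 genes themselves, the 15 pairs had r from -0.43 to 0.87 over 30 libraries and from -0.77 to 0.72 without that library. GFPT1 and PGM3 had 0.752 and 0.722. GFPT1 and GFPT2 had -0.426 and -0.769, so that the deviations of the entry enzymes from their means tended to run in opposite directions in these libraries. Both values include the stromal library of replicate 3 at 50 mM, which held epithelial markers and had 142 CPM of GFPT1 and 57.0 CPM of GFPT2. Whether a mixture of cell types took part was not tested. GNPNAT1 and OGT had the highest value with all libraries, 0.87, and 0.282 without replicate 2 at 5 mM.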

How the data were processed

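RNA libraries of bovine endometrial epithelial and stromal cells were made with a stranded kit and sequenced from one end. After trimming (Cutadapt) and quality filtering, the authors mapped reads to the Ensembl cow genome by Rsubread, and uniquely mapped reads were counted per gene with featureCounts. The deposited values are raw read counts for 27607 genes. The build's name is not given in the sources used here, so no coordinates are printed. The authors' own comparison tables, with fold changes and p-values, served only to match gene IDs with names (17468 IDs). No library pair held identical counts.

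Counts were filtered with filterByExpr, scaled with TMM and tested with edgeR 4.0.16 (R 4.3.3) by the quasi-likelihood test, with replicate number as block, because the authors state a paired design. Samples of one number deviated together (r over 0.1 in every pair) in 8 of 8 treatment and 3 of 5 cell type comparisons. Comparisons within an experiment used their own libraries, and p-values were adjusted over all genes tested. CPM was computed on library totals, so that small fitted changes can differ in sign from the CPM means. GFPT1 between cell types at 1 ng/mL of insulin is such a case. Alternatives were DESeq2 1.42.0, RLE size factors, no filter, no replicate block, and leaving out each replicate. The script was also run on simulated counts with known changes. In the glucose comparisons within a cell type it missed most changes of a log2 fold change of 1. For the difference of the glucose effect between cell types it missed all known changes. Members and lists were chosen with earlier results of these data known. From the lists, genes called in all 5 cell type comparisons or in a treatment comparison were named, and the 3 genes most like a member by r, with at least 1 CPM in 15 libraries. The values of 1 listed gene are not reported here, although the list counts include it.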

Additional observations from a re-analysis of the deposited data

Results flagged for a closer look

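UAP1 moved in opposite directions between cell types in the 2 experiments. The log2 difference of epithelial over stromal CPM was below 0 in 6 of 6 pairs of the glucose experiment, with a median of -0.51 and a range from -0.69 to -0.01. It was above 0 in 9 of 9 pairs of the insulin experiment, with a median of 0.25 and a range from 0.17 to 0.43. These pair values use CPM on library totals. The fitted changes, scaled with TMM, were -0.85 and -0.41 in the glucose experiment and 0.18, 0.22 and 0.12 in the insulin experiment. Only the 95% interval at 5 mM glucose left out 0 (-1.56 to -0.13). The difference between the experiments was not tested, and none of the 5 fitted changes was called. The pairs of one experiment share replicate numbers, and the 2 experiments are separate sets of libraries.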

How the results depend on the processing

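Of the counts of called members over the alternatives, 107 were within 1.5 times the reported count and 5 were not. Most of these counts belong to treatment comparisons and differences of effects, where the reported count was 0, also with 1 replicate left out. Their agreement says little about how stable the calls between cell types were. At 50 mM glucose the count of called members between cell types was 1, and 0 to 2 with 1 replicate left out. At 1 ng/mL of insulin it was 4, but 2 with DESeq2 and 2 to 4 with 1 replicate left out. With no replicate block the counts were 1, 1, 3, 4 and 4 over the 5 cell type comparisons, against 1, 1, 2, 4 and 3, and 0 in all treatment comparisons. Without the block, PGM3 in the difference of the glucose effect between cell types gave -0.0094, against 0.0039. Directions also turned when 1 replicate was left out. GFPT1 in the insulin comparisons of cell types ranged from -0.29 to 0.14 (vehicle), -0.27 to 0.10 (1 ng/mL) and -0.37 to 0.072 (10 ng/mL). For glucose in epithelial cells GFPT2 ranged from -0.042 to 2.23, GNPNAT1 from -0.060 to 0.89 and OGT from -0.030 to 0.81. In stromal cells GNPNAT1 ranged from -0.092 to 0.13 and UAP1 from -0.11 to 0.019. In the difference of the glucose effects GFPT1 ranged from -0.017 to 0.24, GNPNAT1 from -0.060 to 0.98 and PGM3 from -0.076 to 0.034. The cause was not tested, and a fit with 1 replicate left out has fewer samples. Over all genes, the calls between cell types at 50 mM numbered 2397, but 1088 with no replicate block, 3897 without replicate 3, 0 without replicate 1 and 3171 with no filter (3529 with DESeq2). For glucose, DESeq2 called 178 genes in stromal cells and 221 were called in epithelial cells without replicate 2, against 0 in the reported fits. For 10 ng/mL over vehicle in epithelial cells 16 genes were called, but 0 with DESeq2 or with no block and 49 with no filter. For the difference of the 1 ng/mL effect 92 were called, but 27 with DESeq2, 0 with no block and 294 with no filter. Epithelial GFPT2 rested on 6 to 254 reads a library.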
